A study of Homo sapiens with 6 samples.

Results

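Interferon-stimulated genes and cytosolic nucleic-acid sensors were followed in A549, a cell line from a human lung cancer, with and without RAVER1. The set was defined by 50 listed symbols, and the deposited table held a row for 49 of them among its 60624 genes. The symbol without a row, RIGI, is the current name of DDX58, which had one, so that every listed gene was found. The rule takes genes by symbol and uses no measured value, but the members were chosen with earlier results of these data known.

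PolyA RNA was sequenced from 3 libraries of cells in which RAVER1, an RNA-binding cofactor of the splicing regulator PTBP1, had been deleted with CRISPR/Cas9, and from 3 libraries of the parental line, labelled WT. No agent, infection or interferon treatment is named for either group. All deleted libraries carry the title KO2, and the labels do not say whether it stands for 1 clone. What the p-values cover is the scatter among these 6 libraries, since independently made deletions cannot be told from them.

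Interferons are cytokines released when a cell detects foreign or misplaced nucleic acid. RIG-I and MDA5 detect RNA in the cytosol and cGAS detects DNA, and their adaptors lead to phosphorylation of IRF3 and IRF7 and to interferon production. Secreted interferon binds its receptors, JAK kinases phosphorylate STAT proteins, and a complex that holds STAT2 and IRF9 binds the interferon-stimulated response element in the promoters of many genes that restrict viruses. Many of these genes also have a low basal level in unstimulated epithelial cells.

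Total counts ran from 31200927 to 39910127 in the deleted and from 29811747 to 34359060 in the parental libraries, and the first principal component, with 78% of the variance, separated the groups. RAVER1 had counts of 110, 112 and 79 in the deleted libraries and 2510, 1996 and 2285 in the parental libraries. The epithelial markers KRT8, KRT18, KRT19, CDH1 and EPCAM were detected in all 6 libraries, each lower in the deleted cells, with a summed level of 2770 to 3070 TPM (a level per gene length, scaled to library size) in deleted and 5440 to 5790 TPM in parental libraries. A list of 9 leukocyte markers summed to 11.4 to 13.4 TPM in deleted and 13.7 to 15.4 TPM in parental libraries, of which the 2 tested genes carried nearly all counts. CD14 averaged 4.51 ± 0.677 CPM in deleted and 5.49 ± 0.382 CPM in parental cells, and ITGAM 4.597 ± 0.368 CPM in deleted and 4.55 ± 0.478 CPM in parental cells (SD, n = 3 each), neither past the threshold. CD3E, CLEC4C and LILRA4 were at 0 throughout, and PTPRC, LYZ and CD68 had at most 2 counts in any library. Fibroblast markers, 2 of them tested and both higher, summed to 25.4 to 26.6 TPM in deleted and 18.7 to 19.5 TPM in parental libraries. The part of these markers in the results was not tested.

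The core of the response element is the tetramer GAAA repeated after a gap of 2 bases, or its reverse complement. RefSeq promoter windows of 300 bases around annotated start sites (GRCh38.p14) were at hand for 37 of the 49 members, of which 24 had a match in at least 1 window, searched on both strands. Of all 27305 gene symbols with a window, 4.38% have such a match, and 3.57% of all 35116 windows hold the motif. With fewer than 80% of the members covered, a comparison of the set with other genes is void and none is made. The following 30-base stretches show the element for members described below, read along the gene's own strand, with the motif or overlapping motifs in capitals. They are shown because genes with such an element were found in each direction and among those not past the threshold.
ISG15 (chr1:1013377-1013406, plus strand): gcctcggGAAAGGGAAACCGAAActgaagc
HERC5 (chr4:88456987-88457016, plus strand): attacagTTTCCTTTTCCTTTTCgattccg
IFIH1 (chr2:162318821-162318850, minus strand): aattcgcTTTCCTTTTCTGTTTCccgcggt
IFI6 (chr1:27672329-27672358, minus strand): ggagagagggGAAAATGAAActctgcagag
OAS3 (chr12:112938321-112938350, plus strand): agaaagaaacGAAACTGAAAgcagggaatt
IFIT1 (chr10:89392510-89392539, plus strand): cactttccccTTTCGGTTTCcctaggtttc
IFIT3 (chr10:89332468-89332497, plus strand): gttccatcagTTTCACTTTCctttcccctt
IFITM3 (chr11:320876-320905, minus strand): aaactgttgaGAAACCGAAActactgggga
PLSCR1 (chr3:146544667-146544696, minus strand): cgggaaccggGAAAAGGAAAccgtgttgtg

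Of the 39 members with enough counts to be tested, 12 were higher and 10 lower in RAVER1-deleted cells at an adjusted p under 0.05 (edgeR quasi-likelihood test, Benjamini-Hochberg over 16652 genes). That is 56.4% of the tested members, against 41.4% of all genes tested. The higher members made up 30.8%, with 21.3% over all genes, and the lower ones 25.6%, with 20.1% over all genes. With upper-quartile scaling these shares were 28.2% higher and 25.6% lower for the members, and 18.6% higher and 23.3% lower for all genes, so that the lower share of the members was then near that of all genes. The median log2 fold change of the tested members was 0.064 and that of all tested genes 0.0019. Only IFI16 and IFIH1 among the 39 tested members changed by at least 2-fold, and 17 of the 22 changes were smaller than 1.5-fold. The groups did not overlap in CPM (counts scaled to a fixed library size) for 24 of the 39 tested members, or 61.5%, and for 50.2% of all genes. In bulk RNA, fewer cells that express a gene and less RNA per cell cannot be told apart.

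**Figure D1:**
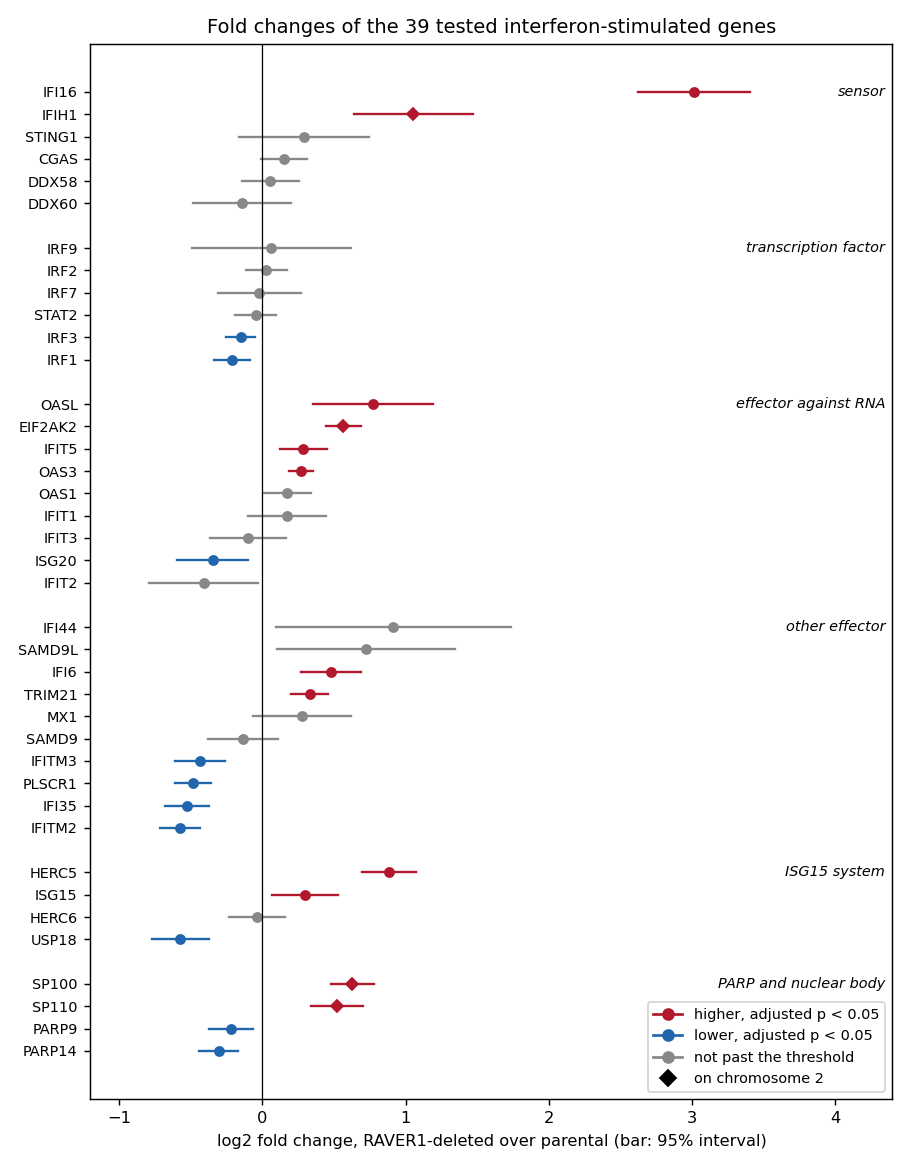
Log2 fold change of each of the 39 tested members, RAVER1-deleted over parental, with its 95% interval, ordered by role (rows) and coloured by the edgeR call at an adjusted p of 0.05; diamonds mark chromosome 2. IFI16 at 3.01 stands apart from the other members, which lie between -0.58 and 1.05.

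The summed level of all 49 members was 659.6 ± 1.55 TPM in RAVER1-deleted and 706.0 ± 9.26 TPM in parental cells (SD, n = 3 each). The most abundant members per length in the deleted cells were IRF3 at 80.3 ± 2.29 TPM, OAS3 at 79.3 ± 0.729 TPM and IFITM2 at 73.9 ± 5.97 TPM, and neighbours in that order differed by less than the larger of their SDs. In the parental cells IFITM2 led with 112.5 ± 4.61 TPM, before IRF3 with 90.8 ± 1.68 TPM and OAS3 with 67.0 ± 0.341 TPM, and these 3 differed by more than their SDs.

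**Figure D2:**
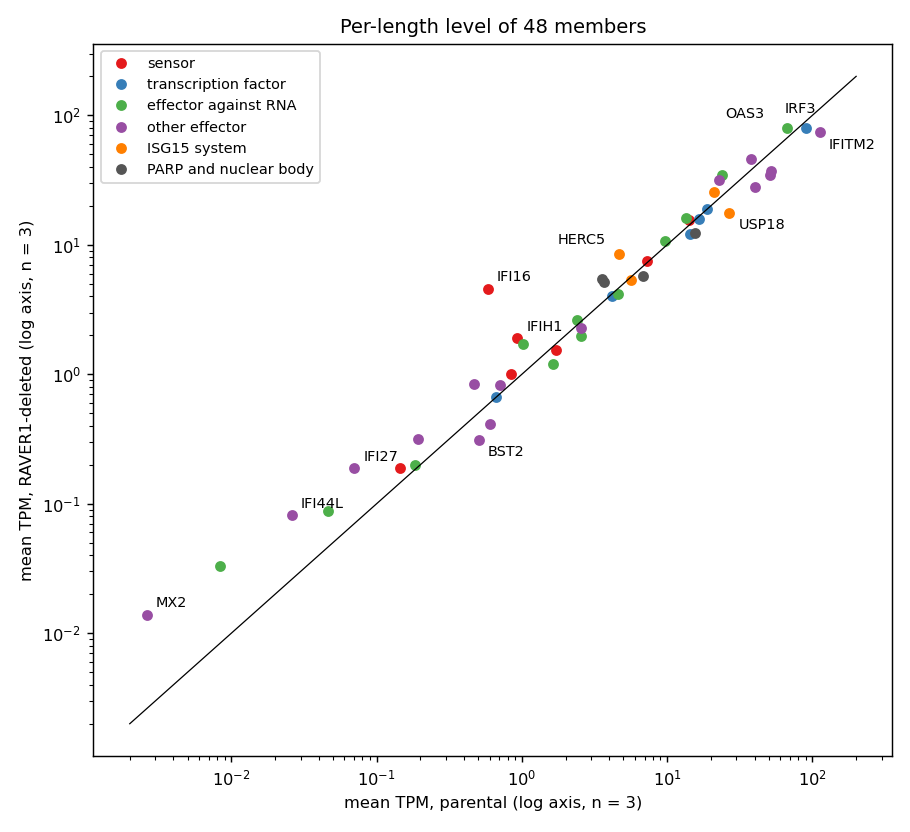
Mean level per gene length in TPM of 48 members, RAVER1-deleted (vertical) against parental (horizontal), both on log axes, coloured by role; XAF1, with no count in parental cells, is left out. Most points lie near the line of equal level, IFI16 lies well above it with 4.59 TPM in deleted and 0.582 TPM in parental cells, and points under about 0.2 TPM rest on few counts.

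Among the nucleic-acid sensors, IFI16 and IFIH1 rose and the other 4 tested genes were not past the threshold. These 2 were 33.3% of the 6 tested sensors. Of all genes 21.3% were higher and 41.4% were called in either direction. IFI16 (ENSG00000163565, hg38 chromosome 1, 158999968 to 159055155, plus strand) encodes a PYHIN-family protein that binds DNA in the nucleus and cytosol. It had 6.41, 7.01 and 7.44 CPM in the deleted libraries, against 0.467, 0.954 and 1.17 CPM in the parental libraries. Every deleted library lay far above every parental one. Its log2 fold change was 3.01 (SE 0.19, edgeR adjusted p 1.93e-10), an 8.08-fold difference, and it ran from 2.70 to 3.30 when each library was left out. Among the 24 tested genes nearest to it, the median difference was 0.027 on the log2 scale. The other genes of its family, AIM2, MNDA and PYHIN1, had a count of 0 in all 6 libraries. Neither of the 2 promoter windows of IFI16 holds the response element as spelled here.

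IFIH1 (chromosome 2, 162267079 to 162318703, minus strand) encodes MDA5, the sensor of long duplex RNA. Its level was 2.69, 3.27 and 2.38 CPM in the deleted libraries and 1.75, 1.35 and 0.923 CPM in the parental ones. The groups did not overlap, and the log2 fold change was 1.05 (SE 0.20, edgeR adjusted p 0.000275). DDX58, which encodes RIG-I, had 9.31, 9.60 and 11.0 CPM in deleted and 9.16, 10.6 and 8.92 CPM in parental libraries, with the groups interleaved. Its difference lay between -0.14 and 0.25 on the log2 scale (95% interval). The DNA sensor CGAS stood at 0.15 (interval -0.01 to 0.32) and passed without deleted replicate 1 (0.22). Its downstream adaptor STING1 stood at 0.29 (-0.16 to 0.74) and the helicase DDX60 at -0.14 (-0.48 to 0.20). STING1 was scarce, with 1.01 ± 0.176 TPM in deleted and 0.839 ± 0.194 TPM in parental cells (SD, n = 3 each). DHX58, which encodes the regulatory helicase LGP2, was below the filter with 5 to 11 counts in deleted and 3 to 9 counts in parental libraries.

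**Figure D3:**
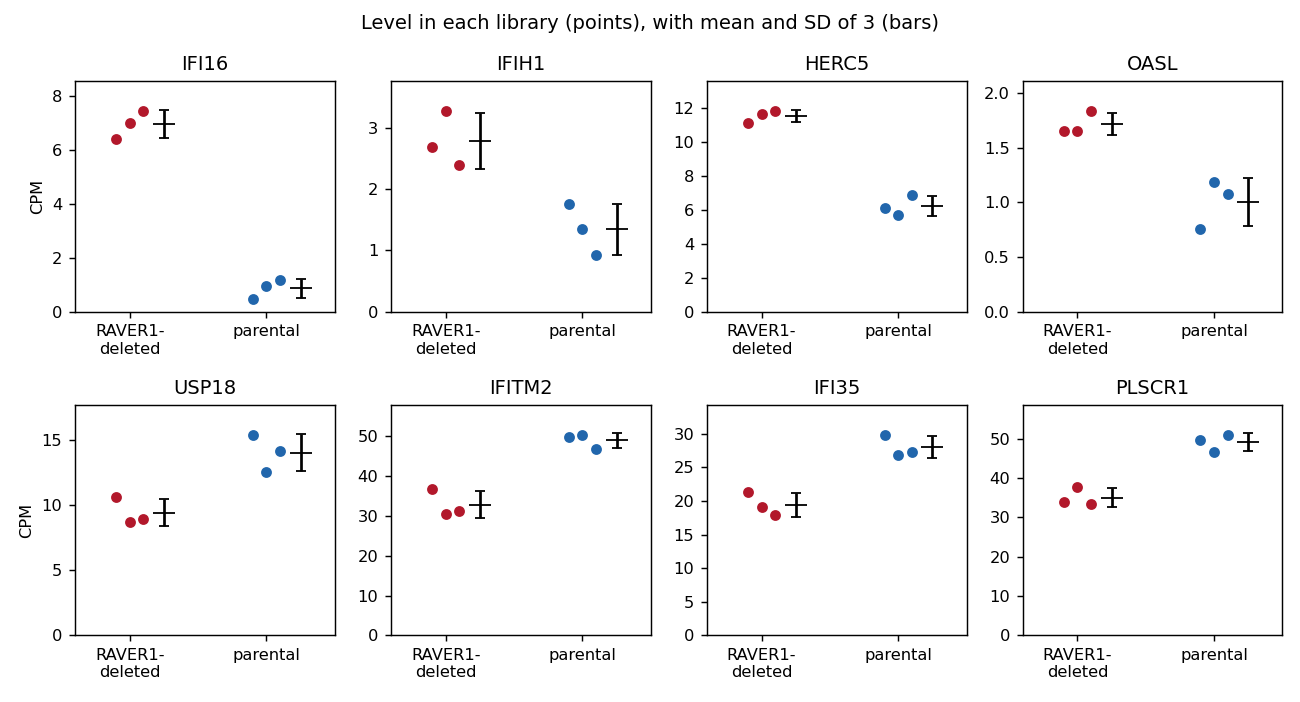
CPM in each library (points; RAVER1-deleted left, parental right), with the mean and SD of the 3 libraries (bars), for 4 members that rose (top row) and 4 that fell (bottom row); every axis starts at 0. The groups are separate in all 8 panels, by the widest ratio for IFI16.

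No transcription factor of the set rose. The 2 that fell were 33.3% of the 6 tested, against 20.1% of all genes. IRF1, an activator that is itself induced by interferon, had 27.6, 26.1 and 27.5 CPM in the deleted libraries and 31.2, 30.1 and 33.0 CPM in the parental ones. The deleted libraries were all lower, with a log2 fold change of -0.21 (SE 0.060, edgeR adjusted p 0.00765). IRF3, the constitutive factor downstream of the sensors, stood at 92.3, 85.6 and 84.2 CPM in deleted and 98.8, 93.9 and 98.1 CPM in parental libraries. Here too the groups did not overlap, with a log2 fold change of -0.15 (SE 0.048, adjusted p 0.0173). The IRF1 call was lost without parental replicate 3 (-0.18), and the IRF3 call without deleted replicate 2 (-0.13) or 3 (-0.12) or without parental replicate 1 (-0.14) or 3 (-0.15). IRF3 also shares 734 exon bases with BCL2L12 on the opposite strand, and IRF1 shares 1716 with C5orf56, so their reads may be mixed. C5orf56 had 94 counts over the deleted and 116 over the parental libraries, against 2963 and 3054 for IRF1.

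The subunits that carry the interferon signal to the response element did not pass the threshold. STAT2 had 31.4, 26.1 and 26.7 CPM in deleted and 29.03, 28.7 and 29.2 CPM in parental libraries, with a 95% interval of the log2 difference from -0.19 to 0.10. IRF9, its DNA-binding partner, was scarce at 0.698, 0.880 and 0.483 CPM in deleted and 0.642, 0.691 and 0.677 CPM in parental libraries, and all of its parental values fell within the range of the deleted ones (log2 interval -0.49 to 0.62). IRF9 shares 1838 exon bases with AL136295.5 on the same strand, so its counts are uncertain. IRF2, a repressor at the same elements, had an interval of -0.12 to 0.17, and IRF7, the inducible amplifier of interferon production, one of -0.31 to 0.27.

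Of the 9 tested effectors that act on RNA 4 were higher and 1 lower, each by less than 2-fold. These were 44.4% and 11.1%, against 21.3% and 20.1% of all genes. OASL, an enzymatically inactive relative of the oligoadenylate synthetases, showed the largest change of these. It had 1.66, 1.66 and 1.84 CPM in the deleted and 0.759, 1.18 and 1.08 CPM in the parental libraries. No parental library reached a deleted one, and the log2 fold change was 0.77 (SE 0.20, edgeR adjusted p 0.0041). EIF2AK2 encodes PKR, the kinase that halts translation on duplex RNA. It lies on chromosome 2 and had 96.2, 114.4 and 110.3 CPM in deleted and 69.0, 75.2 and 72.7 CPM in parental libraries, a log2 fold change of 0.57 (SE 0.059, edgeR adjusted p 2.78e-07) with no overlap.

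OAS3, the synthetase that makes most of the messenger activating RNase L in human cells, differed little between replicates. Its level was 188.3, 183.4 and 185.0 CPM in the deleted libraries and 156.2, 151.5 and 153.8 CPM in the parental ones. The difference of 0.27 (SE 0.040, edgeR adjusted p 2e-05) was small but larger than the spread within either group. OAS1, in the same cluster on chromosome 12, had 16.6, 13.7 and 15.2 CPM in deleted and 13.5, 13.8 and 13.05 CPM in parental libraries and was not past the threshold (0.17, adjusted p 0.0928). It passed without deleted replicate 2 (0.25). OAS2, the remaining synthetase of that cluster, had 2 to 10 counts in deleted and 2 to 3 in parental libraries.

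The IFIT genes, which bind viral RNA ends and are textbook targets of the response element, gave no common direction. IFIT1 had 3.36, 3.62 and 3.51 CPM in the deleted libraries and 2.77, 3.42 and 3.14 CPM in the parental ones, and IFIT3 2.90, 3.17 and 3.06 CPM in the deleted and 3.09, 3.39 and 3.32 CPM in the parental ones. For both genes the groups overlapped, with 95% intervals of -0.10 to 0.44 for IFIT1 and -0.37 to 0.16 for IFIT3. IFIT2 stood at -0.41 (SE 0.18, edgeR adjusted p 0.0784), lower in each deleted library but not past the threshold, which it passed without deleted replicate 2 (-0.56). IFIT2 shares 65 exon bases with LIPA on the opposite strand, so reads may be mixed. LIPA had 14434 counts over the deleted and 11867 over the parental libraries, against 154 and 181 for IFIT2. IFIT5 rose, with 16.6, 19.7 and 19.3 CPM in deleted and 14.5, 15.9 and 15.2 CPM in parental libraries (0.29, SE 0.077, edgeR adjusted p 0.00585). The 4 genes lie within 137.3 kb on chromosome 10, and together they summed to 24.1 ± 2.30 TPM in deleted and 22.0 ± 1.53 TPM in parental cells (SD, n = 3 each). The exonuclease ISG20 had 4.42, 3.59 and 4.09 CPM in deleted and 5.08, 4.71 and 5.57 CPM in parental libraries, with no overlap. It fell by 0.35 (SE 0.12, edgeR adjusted p 0.0249), a call lost without deleted replicate 2 (-0.26), without parental replicate 3 (-0.29) and in DESeq2 (-0.35, adjusted p 0.0633).

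**Figure D4:**
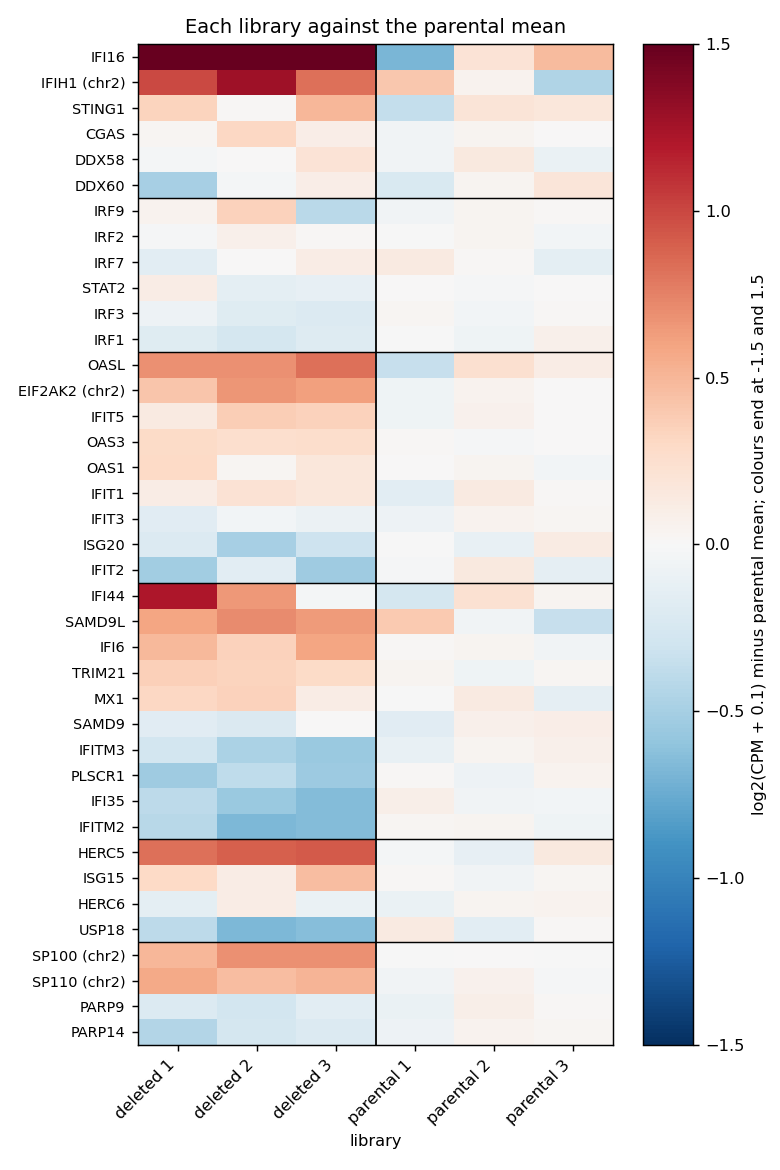
Each tested member (rows, by role) in each library (columns; RAVER1-deleted left, parental right), as log2(CPM + 0.1) minus the mean of the 3 parental libraries; colours end at -1.5 and 1.5. HERC5, SP100, SP110, EIF2AK2 and OASL are higher and IFITM2, IFI35, PLSCR1 and USP18 lower in all 3 deleted libraries, while IFI44 differs among them.

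Of 10 tested members that act on membranes, virus particles or other targets 4 were lower and 2 higher. The lower ones were 40.0%, against 20.1% of all genes, and the share of higher ones was near the 21.3% of all genes. IFITM2 and IFITM3 encode small membrane proteins that block fusion of viruses in endosomes. IFITM2 had 36.6, 30.5 and 31.1 CPM in the deleted libraries, against 49.7, 50.3 and 46.7 CPM in the parental ones, while IFITM3 had 13.7, 11.9 and 11.3 CPM in deleted and 15.4, 17.1 and 17.5 CPM in parental libraries. Neither gene's groups overlapped, and the log2 fold changes were -0.58 (SE 0.067) and -0.43 (SE 0.083), with edgeR adjusted p values of 1.09e-06 and 0.000333. The IFITM genes are near-identical copies within 19.9 kb of chromosome 11, and IFITM1 and IFITM2 share 351 exon bases, so reads may have been split between them. Their sum was 111.6 ± 8.64 TPM in deleted and 164.7 ± 6.37 TPM in parental cells (SD, n = 3 each), a lower level in the same direction as the 2 genes.

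PLSCR1, a scramblase that moves phospholipids between membrane leaflets, had 33.9, 37.7 and 33.4 CPM in the deleted libraries and 49.7, 46.5 and 51.0 CPM in the parental ones. IFI35, an interferon-induced leucine zipper protein, had 21.3, 19.1 and 17.8 CPM in deleted and 29.8, 26.9 and 27.3 CPM in parental libraries. Both were lower in every deleted library than in any parental one, with log2 fold changes of -0.49 (SE 0.060) and -0.53 (SE 0.072) and edgeR adjusted p values of 2.66e-06 and 8.55e-06. Among the 24 tested genes nearest to each, the median was -0.21 for PLSCR1 and 0.028 for IFI35. TRIM21, the cytosolic antibody receptor, rose by 0.33 (SE 0.062, adjusted p 0.000274), with 26.3, 25.8 and 24.998 CPM in deleted and 20.9, 19.6 and 20.8 CPM in parental libraries. The 24 tested genes nearest to TRIM21 had a median of 0.15. The part of such local shifts in these changes was not tested. IFI6, a small protein of mitochondria and the endoplasmic reticulum, stood at 7.65, 6.94 and 8.21 CPM in deleted and 5.48, 5.56 and 5.23 CPM in parental libraries (0.48, SE 0.10, edgeR adjusted p 0.000683).

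Several genes known for strong induction by interferon had few counts in both groups. MX1, a dynamin-like GTPase that traps viral particles, had 2.12, 2.19 and 1.84 CPM in deleted and 1.69, 1.88 and 1.54 CPM in parental libraries (interval -0.06 to 0.62, not past the threshold). IFI44 was not past it either, with 29, 19 and 8 counts in deleted and 7, 10 and 9 counts in parental libraries, and passed without deleted replicate 3 (1.18, edgeR adjusted p 0.018). SAMD9L, a factor that limits translation of viral RNA, had 24, 27 and 20 counts in deleted and 18, 11 and 9 counts in parental libraries (0.73, adjusted p 0.0578), and passed without parental replicate 1 (1.02). SAMD9, its neighbour, stood at -0.14 with overlapping groups.

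The 10 members below the low-count filter were DHX58, OAS2, RSAD2, CMPK2, IFITM1, BST2, MX2, IFI27, IFI44L and XAF1. RSAD2, which encodes the antiviral enzyme viperin, had 3, 1 and 1 counts in deleted and 0, 1 and 0 counts in parental libraries. XAF1, a proapoptotic protein, had 1 count in a single deleted library, and its 0 counts in the parental group allow up to 0.0309 CPM there (3 counts over the group, counting error only). The tetherin gene BST2 had 2 to 5 counts in deleted and 3 to 7 in parental libraries. IFI27, a mitochondrial protein, had 5, 10 and 9 counts in deleted and 3, 2 and 3 in parental libraries, and IFI44L 6, 11 and 9 in deleted and 1, 5 and 1 in parental libraries. With all genes fitted and no filter, IFI44L was past the threshold (1.67, SE 0.62, edgeR adjusted p 0.034) and IFI27 was not (1.38, SE 0.62, adjusted p 0.0978).

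The ISG15 system attaches the ubiquitin-like protein ISG15 to other proteins through the ligase HERC5 and removes it through the protease USP18. HERC5 (chromosome 4, 88457117 to 88506163, plus strand) had 11.1, 11.6 and 11.8 CPM in the deleted libraries and 6.10, 5.69 and 6.86 CPM in the parental ones. The deleted libraries were all higher, and the log2 fold change of 0.88 (SE 0.091, edgeR adjusted p 2.16e-07) was, after that of IFI16, the largest past the threshold outside chromosome 2. HERC6, its neighbour, had overlapping groups and an interval of -0.23 to 0.16. USP18, which also blocks signalling from the interferon receptor, had 10.7, 8.72 and 8.99 CPM in deleted and 15.4, 12.6 and 14.2 CPM in parental libraries. It fell by 0.57 (SE 0.095, edgeR adjusted p 7.44e-05) with no overlap. Its near-copy USP41 had 10, 17 and 8 counts in deleted and 25, 37 and 26 counts in parental libraries, lower in the same cells, and reads may be shared between them.

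ISG15 itself had 6.36, 5.58 and 7.12 CPM in the deleted and 5.22, 4.97 and 5.23 CPM in the parental libraries. The groups did not overlap, but the call (0.30, SE 0.11, edgeR adjusted p 0.0362) was lost without deleted replicate 1 (0.29) or 3 (0.22), without parental replicate 1 (0.31), 2 (0.27) or 3 (0.30), with upper-quartile scaling (0.26) and in DESeq2 (0.30). The ISG15-conjugating enzyme UBE2L6, from a list of other genes of the pathway, rose by 0.84 (SE 0.060, edgeR adjusted p 1.59e-09), with 34.8 ± 1.32 CPM in deleted and 19.4 ± 0.407 CPM in parental cells (SD, n = 3 each).

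In the group of PARP and nuclear body genes, PARP9 and PARP14 fell and SP100 and SP110 rose. Thus all 4 tested members were past the threshold, against 41.4% of all genes. SP100 and SP110 lie on chromosome 2, where 72.4% of all tested genes were past it. PARP14, an ADP-ribosyltransferase, had 32.8, 37.1 and 38.6 CPM in deleted and 42.3, 46.2 and 45.5 CPM in parental libraries (-0.30, SE 0.064, edgeR adjusted p 0.000788). Its neighbour PARP9 had 14.9, 14.2 and 15.5 CPM in deleted and 16.1, 18.3 and 17.4 CPM in parental libraries, with no overlap. It stood at -0.22 (SE 0.073, edgeR adjusted p 0.0228), a call lost without deleted replicate 2 (-0.18) and without parental replicate 2 (-0.17) or 3 (-0.22). PARP9 shares 217 exon bases with DTX3L on the opposite strand, so reads may be mixed. DTX3L had 3428 counts over the deleted and 3097 over the parental libraries, against 1620 and 1673 for PARP9. SP100, a scaffold of PML nuclear bodies, had 20.1, 22.9 and 22.8 CPM in deleted and 14.1, 14.2 and 14.2 CPM in parental libraries. SP110, of the same family, had 10.5, 9.78 and 10.1 CPM in deleted and 6.83, 7.41 and 6.95 CPM in parental libraries. Neither gene's groups overlapped, and the log2 fold changes were 0.63 (SE 0.071, edgeR adjusted p 7.89e-07) for SP100 and 0.52 (SE 0.086, edgeR adjusted p 6.71e-05) for SP110.

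Of the 12 members that rose, IFIH1, EIF2AK2, SP100 and SP110 lie on chromosome 2, and no tested member of that chromosome failed to rise. Of all 1125 genes tested on chromosome 2, 66.8% were higher in the deleted cells at an adjusted p under 0.05 (edgeR). A positive log2 fold change, past the threshold or not, was seen for 84.7%. The median log2 fold change of these 1125 genes was 0.42 (quartiles 0.17 and 0.62). SP110 exceeded that median by 0.10 and EIF2AK2 by 0.15, both below the upper quartile, and SP100 by 0.21, just above it. IFIH1 exceeded it by 0.63 and lay above 93.4% of the chromosome's genes. The 24 tested genes nearest to each of these members had medians of 0.52 for IFIH1, 0.49 for EIF2AK2, 0.51 for SP100 and 0.53 for SP110. The part of the chromosome-wide shift in these rises was not tested. On the other chromosomes 8 of 35 tested members were higher and 10 lower, a called share of 51.4% against 39.1% of all 15527 genes tested there, and their median log2 fold change was 0.027. CMPK2 and RSAD2, adjacent on the short arm, were below the filter.

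**Figure D5:**
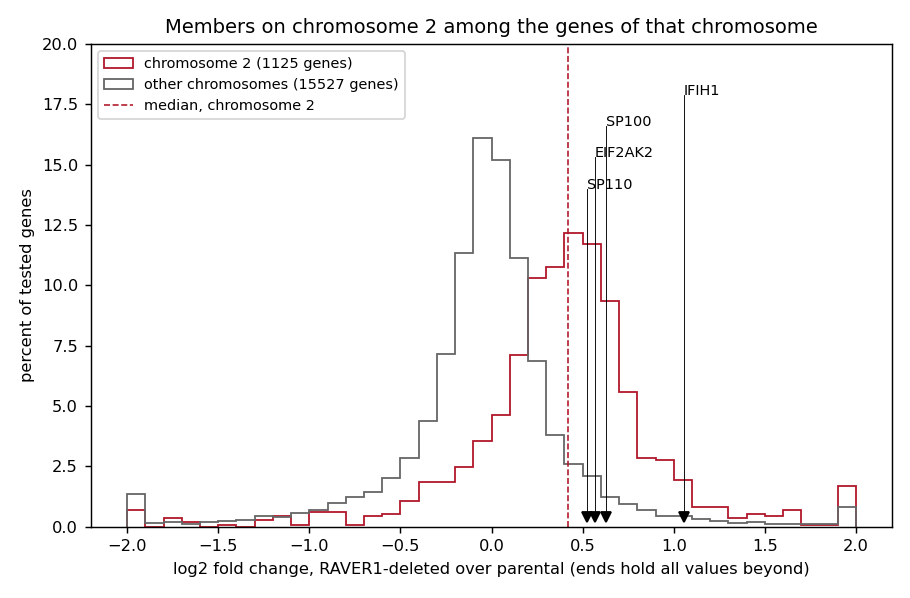
Share of tested genes (vertical, percent) by log2 fold change, RAVER1-deleted over parental (horizontal), for the 1125 genes of chromosome 2 and the 15527 genes of other chromosomes, with the chromosome 2 median at 0.42 dashed. SP110, EIF2AK2 and SP100 sit near the bulk of chromosome 2, and IFIH1 at 1.05 lies in its upper tail.

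Genes upstream of the members were taken from lists of other pathway genes. Of 10 interferon genes, 9, including IFNA1, IFNA2, IFNB1, IFNG and the lambda interferons, had a count of 0 in all 6 libraries. The exception, IFNE, had 12, 9 and 8 counts in deleted and 9, 8 and 14 counts in parental libraries. Of 13 tested receptor and JAK-STAT genes 5 were higher and 1 lower, or 46.2% against 41.4% of all genes, with a median log2 fold change of 0.12. The kinase JAK1 rose by 0.64 (SE 0.042), with 329.7 ± 13.9 CPM in deleted and 212.0 ± 4.84 CPM in parental cells (SD, n = 3 each), and the receptor subunit IFNGR1 by 0.62 (SE 0.078). The edgeR adjusted p values were 5.89e-10 for JAK1 and 3.22e-06 for IFNGR1.

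Of 16 tested adaptors and kinases of the sensing pathways 6 were higher and 3 lower, or 56.2%, with a median of 0.071. PRKRA, an activator of PKR on chromosome 2, rose by 0.55 and the ubiquitin ligase TRAF3 by 0.42, and TRIM56 fell by 0.32. Of 13 tested genes of nucleic acid metabolism and negative regulation 5 were higher and 2 lower, or 53.8%, with a median of 0.17. The feedback inhibitor SOCS3 rose by 1.19 (SE 0.060), with 40.2 ± 1.31 CPM in deleted and 17.7 ± 0.638 CPM in parental cells (SD, n = 3 each, edgeR adjusted p 1.15e-11), and the RNase H2 subunit RNASEH2C rose by 0.31. Of 26 tested further interferon-induced genes 7 were higher and 4 lower, or 42.3%, near the 41.4% of all genes, with a median of 0.024. LGALS3BP, a secreted glycoprotein, fell by 0.75 and the guanylate-binding protein GBP2 by 2.08, while the thymidine phosphorylase TYMP rose by 1.39. All genes named in this paragraph had edgeR adjusted p values of 0.000228 or less.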

How the data were processed

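The authors deposited unnormalized whole-number read counts for each gene, beside its length. Per the labels' protocols, TRIzol RNA entered a stranded Illumina mRNA preparation. The submitters' processing notes name cutadapt 2.8, HISAT2 2.1.0, SAMtools 1.10, featureCounts 2.0.0 and the build hg38. Annotation, strand setting and treatment of multimapping reads: not given in the sources used here, so overlapping or near-identical genes are uncertain. The 37 mitochondrial genes had no count in any library.

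From these counts, filterByExpr in edgeR 4.0.16 (R 4.3.3, minimum count 10) kept 16652 genes, libraries were scaled with TMM, and the quasi-likelihood F-test compared RAVER1-deleted with parental libraries without covariates. Benjamini-Hochberg adjustment covered all genes kept, and the threshold was 0.05. CPM used TMM-scaled library sizes for every gene, and TPM used the deposited lengths. Each standard error was the fold change divided by the root of F, and 95% intervals were built on it. Within groups, no pair of libraries agreed within sampling noise (chi-square per degree of freedom 2.41 to 8.86), so all 6 were kept.

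The members and lists were chosen with earlier results of these data known. Values in every library were given for members past the threshold and for leading sensors, transcription factors and effectors, and for each pathway list the count and up to 3 genes of smallest p past the threshold. Some genes of these lists are not reported here. Genes named beyond this rule (IFNE and the other interferons, USP41, AIM2, MNDA, PYHIN1) were chosen after their values were seen. Gene coordinates and exon overlaps came from GENCODE release 29 on GRCh38 and promoters from RefSeq. The fit was checked on simulated counts. It recovered 21 of 49 tested genes changed by 1.25-fold, 35 of 49 by 1.5-fold, 43 of 48 by 2-fold and 50 of 50 by 4-fold. The simulation changed 50 genes at each fold, in all far fewer than the 6886 called here, so recovery in the real fit may differ. Of 16231 unchanged genes tested, 8 were called. Members not past the threshold are therefore not shown to be unchanged. Alternatives were RLE and upper-quartile scaling, TMM without chromosome 2 genes, no filter, a filter at 1 CPM, a block for replicate number, DESeq2 1.42.0, limma-voom 3.58.1, each library left out, and a threshold of 0.01.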

Additional observations from a re-analysis of the deposited data

How the results depend on the processing

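The number of members past the threshold was 22 with TMM and 20 to 24 across other scalings, filters, tools and the replicate block, 18 at an adjusted p under 0.01, and 17 to 22 without 1 library. The lowest, 17 with 11 higher and 6 lower of 40 tested, came without parental replicate 3. There 27.5% of the members were higher and 15% lower, against 17.2% and 17% of all genes. The lower share of the members was then below that of all genes. At an adjusted p under 0.01, 28.2% of the members were higher and 17.9% lower, against 15.9% and 14.5% of all genes. All genes past the threshold numbered 5827 to 7456 without 1 library. Of the 22 calls, 17 held under every setting. The others were ISG15, ISG20, IRF1, IRF3 and PARP9. OAS1, CGAS, IFIT2, IFI44 and SAMD9L passed only under some settings. Members that changed sign were not past the threshold under any setting that turned them. These were IRF2 with upper-quartile scaling (-0.0056), DDX60 (0.028), IRF7 (0.055) and HERC6 (0.021) without deleted replicate 1, STAT2 (0.0073) and IRF9 (-0.15) without deleted replicate 2, DDX58 without deleted replicate 3 (-0.012) and IRF7 without parental replicate 1 (0.053). Over all fits without 1 library these ran up to 0.13 for DDX58 and 0.24 for IRF9, and down to -0.26 for DDX60, -0.14 for STAT2, -0.10 for IRF7 and -0.12 for HERC6. The cause was not tested. No scaling moved the median of all genes by more than 0.033 on the log2 scale.

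Same-numbered libraries of the 2 groups correlated by 0.129, 0.0292 and 0.0142 in their deviations from group means, so the numbers were not taken as pairs. With the replicate number as a block, 24 members and 8346 genes were past the threshold, with OAS1 (0.17) and CGAS (0.15) added among the members. Depth limits the 10 members below the filter. With all 6 libraries they were tested only without it, on at most 11 counts per library. Fits without 1 library, with the filter kept, tested 39 or 40 members.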
